A study of Mus musculus with 12 samples.

Results

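Glycolysis, lactate handling and the entry of pyruvate into mitochondria were followed through 32 genes in the retina of mice that lack Pilrb1/2. The genes were taken by name from the deposited gene table and run from glucose uptake to pyruvate dehydrogenase. They matched 33 of its 53028 rows, because Aldoa names 2 rows, and 267 rows of the deposited transcript table. Of the 33 rows, 31 had a level of at least 1 CPM (reads scaled to library size) in at least 3 libraries and were tested among 16486 genes. The lactate transporter gene Slc16a8 and the second Aldoa row fell below that level.

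Poly(A) RNA of whole retina was sequenced in 12 libraries that form 4 groups of 3. The groups are Pilrb1/2 -/- (knockout, KO) at 12 months, Pilrb1/2+/+ (wild type, WT) at 12 months, KO at 28 days after birth (P28) and WT at P28. The deletion was made by CRISPR editing in C57BL/6J zygotes and the line was crossed back to C57BL/6J, so it is carried by every cell of the animal and not by the retina alone. The series text counts Pilra among the deleted genes while the labels name Pilrb1/2 only, and how many founders gave the line is not given in the sources used here.

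In glycolysis, hexokinase, phosphofructokinase and aldolase prepare glucose for splitting into triose phosphates, and the payoff steps that follow yield ATP and pyruvate. Photoreceptors, the light-sensing cells of the retina, are known for turning much of their glucose into lactate even where oxygen is present, and HK2, the M2 form of pyruvate kinase and LDHA are enzymes that they are known to hold. Pyruvate that is not reduced to lactate enters mitochondria through the carrier formed by MPC1 and MPC2 and is oxidised by pyruvate dehydrogenase, which the kinases PDK1 to PDK4 inhibit.

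Promoters of 3 of the genes that carry the results are shown first, because Aldoa and Ldha lie among the genes that were lower in 12-month KO retinas while Hk2 moved apart from them. The windows hold 300 bases around the RefSeq start in GRCm38.p6, read 5′ to 3′ on the strand of the gene. They lie at chr6:82774405-82774704 (minus strand, Hk2), chr7:46845554-46845853 (plus strand, Ldha) and chr7:126799129-126799428 (minus strand, Aldoa). Capitals mark ACGTG on either strand, the core of the element that hypoxia-inducible factors bind and also part of the E-box CACGTG. Where a gene had several windows, the one with the most matches is shown, or the first by position in a tie. The other Ldha window (chr7:46846832-46847131) held 0 matches, and the other Aldoa windows held 1 and 0.
Hk2 promoter: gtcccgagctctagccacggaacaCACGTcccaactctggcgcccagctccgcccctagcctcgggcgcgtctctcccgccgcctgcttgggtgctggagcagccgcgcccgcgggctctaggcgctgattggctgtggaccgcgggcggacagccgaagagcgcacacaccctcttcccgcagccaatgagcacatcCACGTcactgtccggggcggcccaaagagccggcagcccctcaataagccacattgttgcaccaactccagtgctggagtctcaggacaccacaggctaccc
Ldha promoter: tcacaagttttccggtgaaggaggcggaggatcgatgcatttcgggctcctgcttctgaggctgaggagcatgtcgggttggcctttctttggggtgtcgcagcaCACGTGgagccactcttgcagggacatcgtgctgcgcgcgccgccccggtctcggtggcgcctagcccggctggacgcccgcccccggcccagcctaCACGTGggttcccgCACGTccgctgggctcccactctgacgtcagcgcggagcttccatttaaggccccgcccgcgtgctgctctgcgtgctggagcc
Aldoa promoter: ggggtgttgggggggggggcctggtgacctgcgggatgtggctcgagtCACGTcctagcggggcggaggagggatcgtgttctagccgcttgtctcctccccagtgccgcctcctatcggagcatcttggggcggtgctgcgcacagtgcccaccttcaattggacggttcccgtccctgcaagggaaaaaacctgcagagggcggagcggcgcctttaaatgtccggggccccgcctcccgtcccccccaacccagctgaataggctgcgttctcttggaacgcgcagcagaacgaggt
Of 48 windows of 31 of the 32 genes, 45.8% held ACGTG on either strand, against 19.6% of all 32851 mouse windows of that length. GCGTG on either strand stood in 56.3% of the member windows and in 32.4% of all windows. TAATCC on either strand, the letters that the photoreceptor factor CRX binds, stood in 8.33% of member windows and in 7.06% of all windows. The member windows were also richer in GC, at a median of 61.7% against 52.7%, and the part of GC in these shares was not tested. Slc2a3 had no window.

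Library depth, read back from the smallest step between transcript values, was 14.1 to 26.1 M reads, so that 3 reads correspond to 0.110 to 0.198 CPM, a floor for counting error only. Pilrb1 and Pilrb2 were each listed at 0 in 11 of 12 libraries, KO and WT alike. Pilra was at 0.441 to 1.16 CPM in P28 KO and 0.133 to 0.170 CPM in P28 WT libraries, higher in KO without overlap. At 12 months it was at 0.0556 to 0.309 CPM in KO and 0.159 to 0.268 CPM in WT, which overlap. These genes thus do not check the labels. The 10 rod markers, which define the labelled tissue, summed to 27442 to 48507 CPM, and none of them was at 0 in every library of a group. Xist, which marks female cells, was above 100 CPM in P28 KO libraries 2 and 3 and in 12-month WT libraries 1 and 2 and at 4.94 to 16.3 CPM in the others, so that the sexes differ between the genotypes at each age. Mitochondrial transcripts were 9.94 to 12.6% of all CPM in 12-month KO, 7.36 to 8.29% in 12-month WT, 4.56 to 7.08% in P28 KO and 7.36 to 9.31% in P28 WT libraries. The libraries farthest from their group mates were P28 KO 2 and 12-month KO 2, with standard deviations of log2 values of 0.482 and 0.385. The labels do not say that libraries came from separate animals, so p-values measure the spread between these libraries, and in bulk RNA fewer cells of a type cannot be told apart from less RNA per cell.

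At 12 months, glycolysis genes were lower in KO retinas along nearly the whole pathway. Of the 31 tested genes 20 were lower and 2 higher by limma with Benjamini-Hochberg adjustment over all genes, where 23.5% of all tested genes were lower, 16.1% higher and 39.6% called in either direction. The median log2 fold change of CPM + 1 was -0.46 over the members and -0.03 over all tested genes. All 6 payoff genes were lower, as were 8 of 11 preparatory genes, both lactate dehydrogenase genes and 3 of 4 transporters, against 1 of 8 genes of pyruvate entry. The 3 KO libraries had member medians of -0.39, -0.62 and -0.34 against the WT mean, and the summed level of all 33 rows was 5612 to 7081 CPM in KO and 8930 to 10118 CPM in WT libraries. KO and WT libraries did not overlap for 26 of the 31 genes, 20 below and 6 above, where 59.1% of all tested genes did not overlap. Without 12-month KO library 2, 15 genes were lower and 0 higher, where 13.6% of all tested genes were lower.

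**Figure D1:**
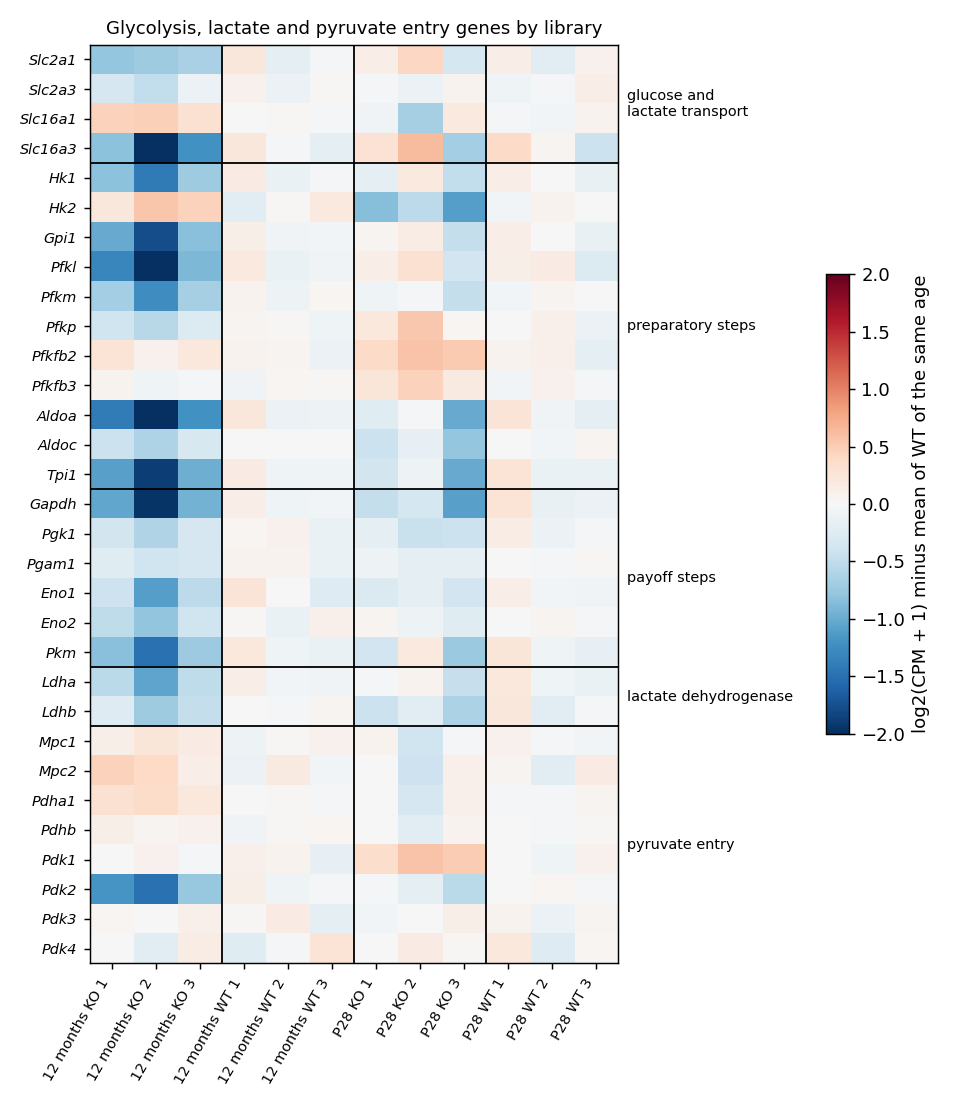
Level of each tested gene in each library as log2(CPM + 1) minus the mean of the WT libraries of the same age, genes in rows by role and libraries in columns (differences beyond 2 are drawn at 2). The 12-month KO columns are blue for 20 genes, with 12-month KO library 2 the lowest for most, while Hk2 and most genes of pyruvate entry are not.

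Among the preparatory steps Aldoa, aldolase A (ENSMUSG00000030695, GRCm38 chr7:126795234-126800751), had the largest difference. It stood at 251, 129 and 287 CPM in 12-month KO retinas, against 773, 612 and 618 CPM in 12-month WT retinas. Every KO library lay below every WT library, and KO library 2 was the lowest of all (log2 fold change -1.65 ± 0.29 SE, limma adjusted p = 0.00293). Pfkl, the liver-type phosphofructokinase, stood at 29.4, 17.6 and 39.7 CPM in KO and 85.4, 68.1 and 71.2 CPM in WT, again without overlap (-1.41 ± 0.25, limma adjusted p = 0.00298). Its muscle-type relative Pfkm stood at 41.6, 28.1 and 42.4 CPM in KO and 70.9, 62.7 and 69.5 CPM in WT. The groups were apart there too, by a smaller step (-0.86 ± 0.15, limma adjusted p = 0.00298).

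Tpi1, triose phosphate isomerase, stood at 135, 77.7 and 146 CPM in 12-month KO and 325, 272 and 272 CPM in 12-month WT retinas (-1.31 ± 0.24, limma adjusted p = 0.00328). Gpi1, which turns glucose 6-phosphate into fructose 6-phosphate, stood at 258, 151 and 289 CPM in KO and 562, 496 and 501 CPM in WT (-1.21 ± 0.21, limma adjusted p = 0.00298). Hk1, the widely expressed hexokinase, stood at 178, 117 and 191 CPM in KO and 354, 286 and 306 CPM in WT (-0.98 ± 0.19, limma adjusted p = 0.00356). In all 3 genes KO library 2 was the lowest library and no KO library reached a WT one. Pfkp (-0.41) and Aldoc (-0.46), the platelet-type phosphofructokinase and the brain-type aldolase, were lower by less in their gene values. The leading coding transcript Aldoc-202 was lower by more than the gene value (-1.57 ± 0.32, limma adjusted p = 0.0145), and Pfkp-201 is described below. Pfkfb2 (0.18) and Pfkfb3 (-0.02), which make and break the phosphofructokinase activator fructose 2,6-bisphosphate, did not pass, and Hk2 was higher and is described apart.

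Of the payoff genes Gapdh, glyceraldehyde phosphate dehydrogenase, stood at 390, 206 and 415 CPM in 12-month KO and 886, 758 and 774 CPM in 12-month WT retinas (-1.32 ± 0.25, limma adjusted p = 0.00332). Pkm, pyruvate kinase of muscle and most other tissues, stood at 394, 251 and 424 CPM in KO and 813, 667 and 645 CPM in WT (-1.02 ± 0.23, limma adjusted p = 0.00621). The highest KO library lay well below the lowest WT library for both genes. The other payoff genes were lower by smaller amounts, from -0.68 for Eno1 and -0.56 for Eno2, the enolases, to -0.44 for Pgk1 and -0.33 for Pgam1. The lactate dehydrogenase genes Ldha (-0.70 ± 0.17) and Ldhb (-0.48 ± 0.14) were both lower (limma adjusted p = 0.00727 and 0.0164).

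The transporters parted. Slc16a3, which encodes the lactate exporter MCT4, was at 4.58, 1.42 and 3.24 CPM in 12-month KO and 10.4, 8.61 and 7.59 CPM in 12-month WT retinas, low values without overlap (-1.35 ± 0.35, limma adjusted p = 0.0107). The glucose transporter genes Slc2a1 (-0.71 ± 0.17, limma adjusted p = 0.00765) and Slc2a3 (-0.32 ± 0.11, limma adjusted p = 0.0325) were lower as well. Slc16a1, which encodes the lactate and pyruvate transporter MCT1 and is the most abundant lactate transporter gene here, was at 379, 383 and 342 CPM in KO and 278, 279 and 270 CPM in WT. All its KO libraries lay above the WT libraries, but the difference of 0.41 ± 0.16 did not pass (limma adjusted p = 0.0571).

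Slc16a8, which encodes MCT3, a lactate transporter of the pigment epithelium, was listed at 0, 0.102 and 0.0568 CPM in 12-month KO and at 0.513, 0.831 and 0.225 CPM in 12-month WT retinas. All 12-month KO values lay below the floor of 3 reads and all WT values above it (two-sided exact permutation p = 0.1, the smallest that 3 against 3 allows). At P28 it was at 0.354, 0.185 and 0.104 CPM in KO and 0.204, 0.18 and 0.359 CPM in WT, which overlap (exact permutation p = 0.6). Permuting genotype inside each age gave an exact p of 0.05. The 7 pigment epithelium markers, a list that includes Slc16a8, summed to 42.0 to 113.9 CPM in 12-month KO and 60.6 to 241.7 CPM in 12-month WT libraries, 3 of 5 tested markers were lower and 0 were higher, and the part of carried-over pigment epithelium was not tested. The second Aldoa row (ENSMUSG00000114515) was listed at 0, 0.162 and 0.12 CPM in 12-month KO and 0.394, 0.465 and 0.134 CPM in 12-month WT libraries (exact permutation p = 0.2). At P28 that row stood at 0.0414, 0.127 and 0.053 CPM in KO and 0.162, 0.184 and 0.105 CPM in WT (exact permutation p = 0.2), and permuting genotype inside each age gave an exact p of 0.025. Most of its KO values lie under the floor of 3 reads of their library, and most of its WT values above it.

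Of the 8 genes of pyruvate entry 6 did not pass, and Pdk2 was the one that was lower. This pyruvate dehydrogenase kinase stood at 10.4, 8.15 and 14.1 CPM in 12-month KO and 26.9, 23.3 and 24 CPM in 12-month WT retinas, and the groups were far apart (-1.14 ± 0.17, limma adjusted p = 0.00256). Its relatives Pdk1 (0.01 ± 0.10), Pdk3 (0.05 ± 0.10) and Pdk4 (-0.03 ± 0.17) did not pass. Pdha1, a catalytic subunit of pyruvate dehydrogenase, was higher, at 147, 153 and 138 CPM in KO and 120, 120 and 117 CPM in WT (0.30 ± 0.10, limma adjusted p = 0.0351). Pdhb (0.09), Mpc1 (0.17) and Mpc2 (0.33) did not pass, with limma adjusted p-values of 0.378, 0.241 and 0.0936. From summed coding transcripts Mpc2 was instead lower (-0.44, limma adjusted p = 0.0334), while Pdhb (0.04) and Mpc1 (0.25) again did not pass. The leading coding transcript Mpc2-201 was at -0.46 (limma adjusted p = 0.0850).

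The 12-month KO effect followed the GC content of a gene's transcripts, over all genes and over the members. Spearman's rho between the log2 fold change and GC was -0.74 across 16268 tested genes and -0.86 across the 31 members, a description over genes that share the same libraries. The 20 lower members had a median GC of 54.6% (48.1 to 58.1%), and the other 11 a median of 47.7% (40.6 to 52.8%). With a smooth trend of GC and length removed from each library, 14 members were lower and 1 higher, where 9.75% of all genes were lower, and the member median was -0.31 against -0.09 for all genes. Aldoa (-1.08), Tpi1 (-0.93), Pfkl (-0.86), Hk1 (-0.86), Gapdh (-0.82) and Gpi1 (-0.80) stayed lower, with limma adjusted p-values of 0.0134 to 0.0170. Pgam1 (0.05), Eno2 (-0.09), Aldoc (-0.17), Eno1 (-0.26), Ldhb (-0.26), Slc2a1 (-0.31) and Slc16a3 (-0.81) lost their calls, as did Pdha1 (0.14). Pdk3 gained one (-0.37, limma adjusted p = 0.0332). What set the GC trend was not tested. With a term for sex 17 members were lower and 0 higher, where 18.7% of all tested genes were lower.

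**Figure D2:**
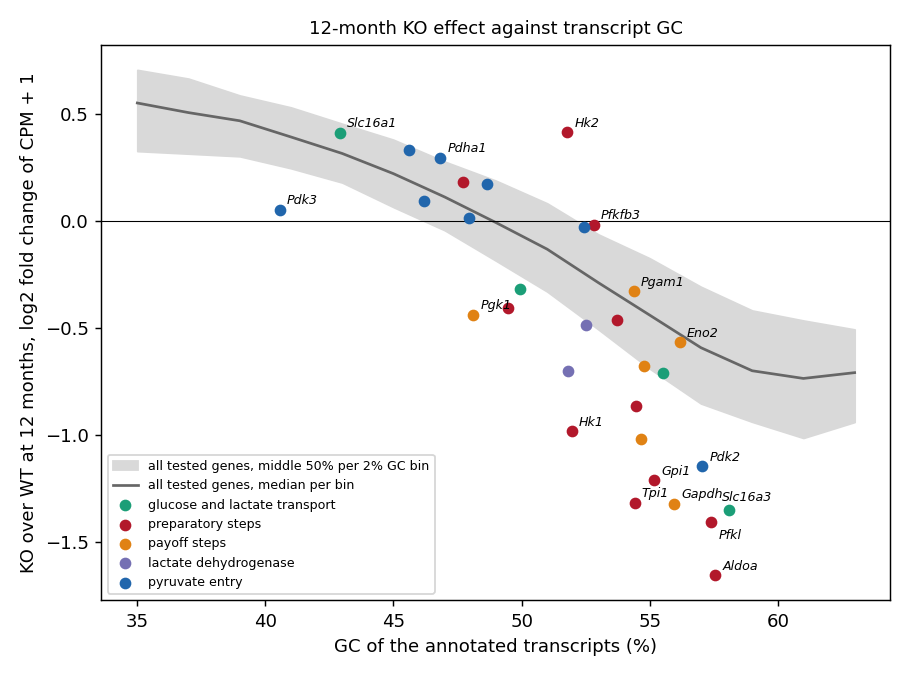
KO effect at 12 months (log2 fold change of CPM + 1) against the GC percent of the annotated transcripts for the 31 tested members, coloured by role, over the median and middle 50% of all tested genes in bins of 2% GC. The effect of all genes falls as GC rises, and Aldoa, Pfkl, Gapdh, Tpi1, Gpi1 and Hk1 lie below the band while Hk2 lies above it.

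At P28 few members differed. Hk2 was lower and Pdk1 and Pfkfb2 were higher in KO retinas, 3 of 31 genes, where 1.49% of all tested genes were called. Pfkfb2 stood at 654, 741 and 721 CPM in P28 KO and 526, 534 and 443 CPM in P28 WT retinas (0.50 ± 0.10, limma adjusted p = 0.0362). Pdk1 stood at 92.3, 108 and 103 CPM in KO and 71.9, 68.2 and 77.1 CPM in WT (0.47 ± 0.10, limma adjusted p = 0.0373). In both genes all KO libraries lay above all WT libraries in their gene values. For the leading coding transcript Pdk1-201, KO library 2 lay below every WT library (0.21 ± 0.15, limma adjusted p = 0.563). From summed coding transcripts Pdk1 was at 0.21 (limma adjusted p = 0.374) and Pfkfb2 at 0.67 (limma adjusted p = 0.0320). The other 28 genes did not pass, and 11 of the 31 did not overlap between the groups, where 23.8% of all tested genes did not. The member median was -0.12 against -0.01 for all genes, with library medians of -0.04, -0.10 and -0.38, so that KO library 3 was the low one. These calls were fragile, with 0 members called without any WT library of that age, without KO library 3 or with a sex term. The count was 1 without 12-month KO library 1 or 3 or any 12-month WT library. It was 5 without KO library 2 and 8 without both KO libraries numbered 2. Calls over all 16486 genes moved too, from 246 to 6 without KO library 3. They rose to 1404 without KO library 2 and 2278 without both KO libraries numbered 2. Rod and red cell marker sums were also lower in every KO than in any WT library at P28. Their part in the member calls was not tested.

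**Figure D3:**
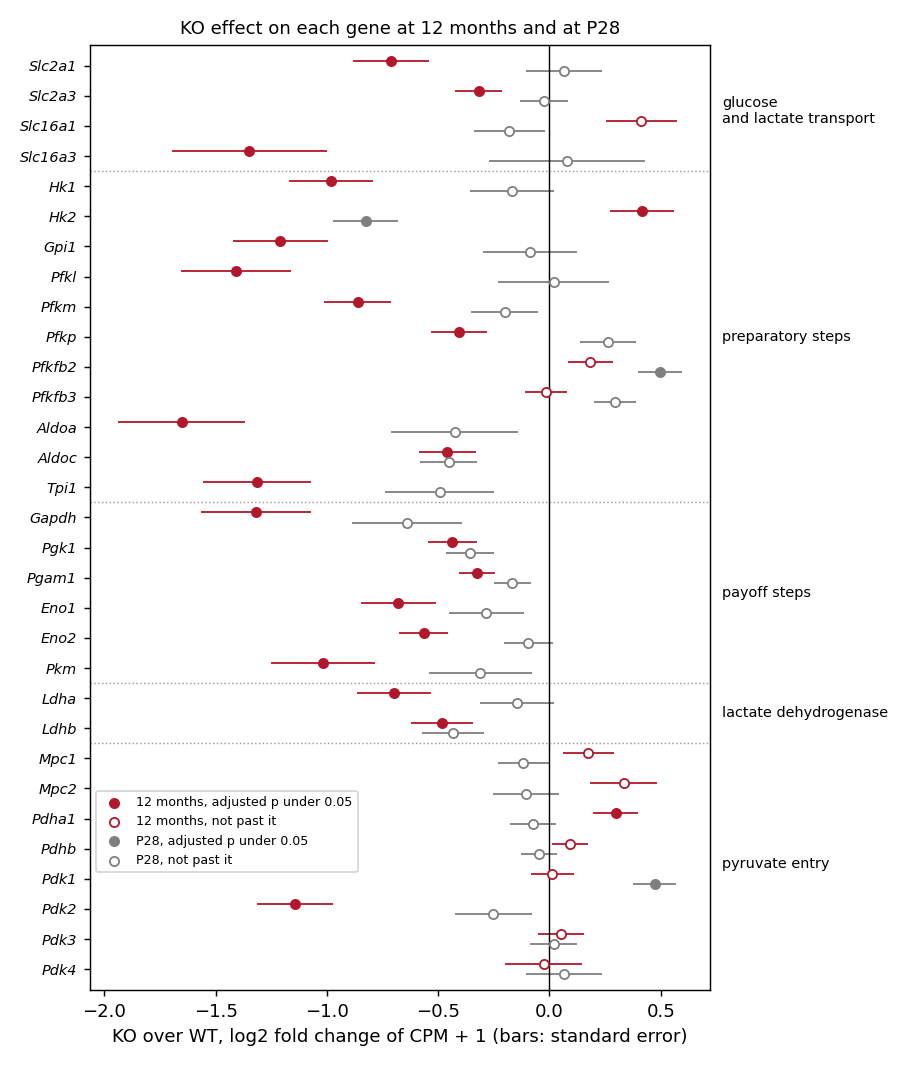
KO over WT log2 fold change of CPM + 1 with its standard error for each tested member at 12 months (red) and at P28 (grey), filled where the limma adjusted p is under 0.05. At 12 months 20 filled points lie left of 0, and at P28 the filled points are Hk2 to the left and Pdk1 and Pfkfb2 to the right.

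Hk2, a hexokinase known in photoreceptors that like HK1 can bind mitochondria (ENSMUSG00000000628, GRCm38 chr6:82725025-82774454), moved in opposite directions at the 2 ages. It stood at 330, 416 and 388 CPM in 12-month KO and 242, 286 and 324 CPM in 12-month WT retinas. At P28 it stood at 146, 184 and 123 CPM in KO and 254, 277 and 263 CPM in WT. KO libraries lay above WT at 12 months and below WT at P28, without overlap at either age, although 12-month KO library 1 and WT library 3 were close. The gene was higher at 12 months (0.41 ± 0.14, limma adjusted p = 0.0371) and lower at P28 (-0.83 ± 0.14, limma adjusted p = 0.0242), and the effects differed by 1.24 ± 0.20 (limma adjusted p = 0.0410). It was the only member called for that difference, where 0.176% of all genes were called. The difference was lost without each library except P28 KO 2, P28 KO 3 and 12-month KO 3 (limma adjusted p up to 0.165 for Hk2). Without P28 KO library 3, 15 members and 2501 of all 16486 genes passed. Without 12-month KO library 3, 5 members and 802 of all genes passed.

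The 2 annotated Hk2 transcripts that were tested behaved differently. Hk2-201 holds the coding sequence in 5513 bases. Hk2-202, a noncoding processed transcript of 594 bases at chr6:82725062-82726309, lies wholly inside Hk2-201 exons and outside its coding part. The coding transcript was at 41.5, 42.5 and 46.9 RPKM (reads scaled to transcript length and library size) in 12-month KO and 50.1, 46.5 and 49.8 RPKM in 12-month WT retinas. The KO values lay just below the WT values or among them (-0.16 ± 0.32, limma adjusted p = 0.748). At P28 it was at 19.7, 49.9 and 15.9 RPKM in KO and 46.0, 39.5 and 39.1 RPKM in WT, where KO library 2 was the highest and the other KO libraries the lowest (-0.71 ± 0.32, limma adjusted p = 0.332).

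The short transcript Hk2-202 was at 82.3, 115 and 96.3 RPKM in 12-month KO and 44.9, 64.3 and 73.9 RPKM in 12-month WT retinas (0.69 ± 0.21, limma adjusted p = 0.0443). At P28 it was at 35.2, 23.1 and 30.3 RPKM in KO and 53.3, 65.5 and 63.7 RPKM in WT (-1.05 ± 0.21, limma adjusted p = 0.0753). Opposite directions without overlap at either age were thus seen for the gene value and Hk2-202. At P28 Hk2-201 was also lower in KO libraries 1 and 3. All 594 bases of Hk2-202 lie in Hk2-201 exons, so the split between the 2 rests largely on the assignment of shared reads. In the gene table a short transcript weighs as much per RPKM as a long one. With reads of both transcripts summed, the 12-month difference was -0.03 (limma adjusted p = 0.925), and with coding RPKM alone -0.16 (limma adjusted p = 0.669), so the rise at 12 months was not seen in the coding transcript.

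**Figure D4:**
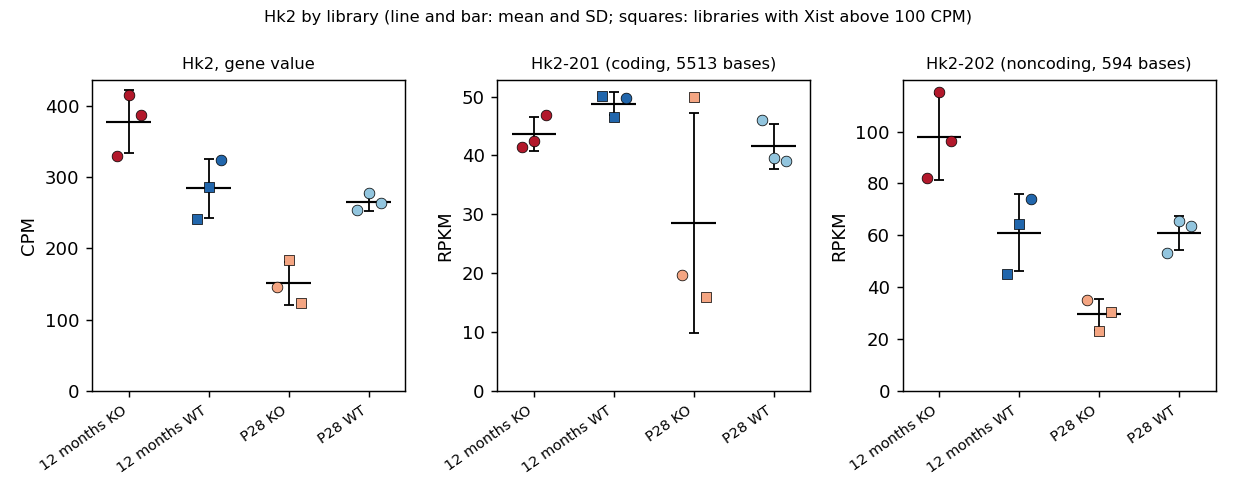
Hk2 in each library as the gene value in CPM (left) and as RPKM of its coding transcript Hk2-201 (middle) and its noncoding transcript Hk2-202 (right), with mean and SD of 3 libraries. KO libraries are above WT at 12 months and below WT at P28 for the gene value and Hk2-202, while Hk2-201 is at 41.5 to 50.1 RPKM in every 12-month library.

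Changes with age were read in each genotype on its own, and only Hk2 differed between them by the test of the difference. In KO, 12 of 31 members passed at 12 months against P28, 3 higher and 9 lower, where 27.2% of all genes were called, 13.3% higher and 13.9% lower, and 11 did not overlap, against 36.0% of all genes. Hk2, with the values above, was 2.52-fold higher in its gene value (1.33 ± 0.14, limma adjusted p = 7.93e-05), and no 12-month KO library overlapped a P28 one. Its coding transcript Hk2-201 differed by 0.78 ± 0.32 and did not pass (limma adjusted p = 0.141). P28 KO library 2, at 49.9 RPKM, lay above every 12-month KO library for that transcript. Pfkl was at 29.4, 17.6 and 39.7 CPM in 12-month KO and 61.7, 70.1 and 43 CPM in P28 KO retinas (-1.03 ± 0.25, limma adjusted p = 0.0102). Pdk2 was at 10.4, 8.15 and 14.1 CPM in 12-month KO and 25.4, 23.1 and 17.7 CPM in P28 KO retinas (-0.97 ± 0.17, limma adjusted p = 0.00212). Both genes were lower in every 12-month library than in any P28 library. Slc2a1 (-0.74), Pdk1 (-0.63), Hk1, Gpi1, Pfkm, Ldha and Pfkfb2 were lower too, and Ldhb (0.40) and Mpc2 (0.43) higher. Of the 12 calls 2 held under every alternative setting and 5 without each library in turn. Those of Gpi1, Ldhb and Mpc2 held in 10, 13 and 8 of 29 alternatives. The count was 6 without P28 KO library 1, 19 without P28 KO library 3 and 6 without 12-month KO library 2, against 12 with all libraries. Over all 16486 genes these fits called 2806, 5539 and 2468, against 4483 with all libraries. With only the groups of each contrast in the fit, 4 members passed between ages in KO and 6 in WT. Of all 16486 genes 1569 and 2293 passed there.

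In WT retinas, 1 of 31 members passed between the ages, where 5.40% of all genes were called. Without P28 KO library 2, 3 members and 1651 of all 16486 genes passed. Without P28 KO library 3, 2 members and 1031 of all genes passed. Pfkfb3, a bifunctional enzyme known for its high kinase activity, was at 50, 54.1 and 53.6 CPM in 12-month WT and 33.6, 37.1 and 34.4 CPM in P28 WT retinas. For 11 members the ages did not overlap in WT, against 34.9% of all genes. All 12-month Pfkfb3 values lay above the P28 ones (0.57 ± 0.09, limma adjusted p = 0.00319). In KO retinas Pfkfb3 was at 55.2, 49.6 and 51.1 CPM at 12 months and 41.8, 48.7 and 39.7 CPM at P28, a difference of 0.26 that did not pass (limma adjusted p = 0.0586). Whether the change with age differed between the genotypes is the same contrast as the difference of the KO effect between ages, in which Pfkfb3 was at -0.31 (limma adjusted p = 0.161).

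Transcripts of the members gave a like picture at 12 months. Of 156 tested transcripts 45 were lower and 4 higher in 12-month KO retinas, where 10.6% and 6.56% of 46931 transcripts were. Lower were 31 of 83 coding transcripts (against 14.3% of all coding ones) and 8 of 45 with a retained intron (against 7.40%). So were 3 of 17 noncoding processed transcripts (against 6.58%) and 3 of 11 targets of nonsense-mediated decay (against 8.29%). At P28 none of the 156 passed limma at 0.05, where 0.298% of all transcripts did. For each gene the coding transcript with the most reads was read as well. Of 30 such transcripts 17 were lower and 1 higher at 12 months, among them Aldoa-203 (-1.60), Pfkl-201 (-1.69), Pkm-201 (-1.56) and Slc2a1-201 (-1.23), with limma adjusted p-values of 0.0100 to 0.0131. Of all tested coding transcripts, leading or not, 14.3% were lower and 6.28% higher. The number of called member transcripts was 3, 30 and 19 without 12-month WT libraries 1, 2 and 3 and 15 without 12-month KO library 2, against 49 with all libraries. Counts over all transcripts are not given for these fits, so a general loss of calls cannot be told apart.

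Some genes held transcripts that moved apart. Most Pfkp reads lay on Pfkp-212, an 8681-base transcript with a retained intron, at 73.3, 65.5 and 78.9 RPKM in 12-month KO and 83.0, 87.9 and 73.3 RPKM in 12-month WT retinas. Those groups overlap (-0.16, limma adjusted p = 0.373), whereas the coding Pfkp-201 was at 25.8, 16.8 and 21.5 RPKM in KO and 59.5, 57.7 and 39.3 RPKM in WT (-1.26 ± 0.21, limma adjusted p = 0.0100). Gapdh-202, the leading coding Gapdh transcript, was at 37.7, 0.713 and 121 RPKM in 12-month KO and 319, 222 and 240 RPKM in 12-month WT, so 12-month KO library 2 held nearly none of it (-3.86 ± 1.38, limma adjusted p = 0.0770). The 483-base Gapdh-208 was at 83.2, 49.4 and 78.6 RPKM in KO and 210, 158 and 162 RPKM in WT (-1.35 ± 0.19, limma adjusted p = 0.00917).

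Mpc1, singled out after its values were seen, kept its gene level while 2 of its coding transcripts swapped. Mpc1-203 was listed at 0 in all 3 12-month KO libraries and at 21.9, 26.3 and 22.1 RPKM in 12-month WT, and at 0, 11.3 and 0 RPKM in P28 KO against 26.5, 16.2 and 18.8 RPKM in P28 WT. Mpc1-208 was at 52.0, 49.8 and 55.2 RPKM in 12-month KO and 22.8, 20.5 and 28.3 RPKM in 12-month WT, and at 65.2, 22.5 and 58.6 RPKM in P28 KO against 31.9, 37.9 and 36.2 RPKM in P28 WT. P28 KO library 2 alone among the KO libraries held both forms. At 12 months Mpc1-203 was lower (limma adjusted p = 0.0103) and Mpc1-208 higher (1.13 ± 0.32, limma adjusted p = 0.0359), and neither passed at P28 (limma adjusted p = 0.115 and 0.686). Of the 603 bases of Mpc1-203 (chr17:8296370-8297449) 542 are shared with Mpc1-208, so its level rests on reads over 61 bases and on the assignment of shared reads.

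Pkm makes its M1 and M2 forms by using the upstream or the downstream of 2 alternative exons, and M2 is the form known in photoreceptors. Both exons are coding, have 167 bases and lie on the plus strand of GRCm38, the upstream exon of Pkm-202 at chr9:59675029-59675195 and the downstream exon of Pkm-201 at chr9:59675568-59675734. They are printed because reads over them decide the split between the forms. Capitals mark the 64 positions at which the exons differ, which leaves them 61.7% identical.
Pkm upstream alternative exon: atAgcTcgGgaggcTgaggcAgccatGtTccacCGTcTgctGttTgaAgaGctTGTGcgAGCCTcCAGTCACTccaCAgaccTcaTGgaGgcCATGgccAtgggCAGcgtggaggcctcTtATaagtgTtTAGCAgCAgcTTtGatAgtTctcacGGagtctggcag
Pkm downstream alternative exon: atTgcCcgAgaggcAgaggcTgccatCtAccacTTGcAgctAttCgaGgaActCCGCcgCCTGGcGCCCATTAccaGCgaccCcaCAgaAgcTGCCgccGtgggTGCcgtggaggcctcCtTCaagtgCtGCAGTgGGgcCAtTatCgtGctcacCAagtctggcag
The downstream form Pkm-201 was at 77.7, 38.4 and 89.2 RPKM in 12-month KO and 218, 170 and 188 RPKM in 12-month WT retinas. The upstream form Pkm-202 was at 36.6, 26.5 and 41.8 RPKM in KO and 111, 83.5 and 85.4 RPKM in WT. Both forms were lower in 12-month KO retinas without overlap, by -1.56 ± 0.30 and -1.41 ± 0.29 (limma adjusted p = 0.0131 and 0.0144). The share of the upstream form was 34.9 ± 5.13% in KO and 32.6 ± 1.24% in WT at 12 months, and 33.6 ± 8.29% in KO and 30.1 ± 1.83% in WT at P28 (SD, n = 3 each). Those shares differed by 2.30 percentage points at 12 months and 3.52 at P28, less than the SD among KO libraries (two-sided exact permutation p = 0.8 and 0.6, and 0.305 over both ages).

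Levels per length, the RPKM summed over a gene's transcripts, ranked Gapdh first in 12-month WT retinas, followed by Eno1, Aldoa and Pkm. Gapdh was at 401 RPKM in 12-month KO and 1009 RPKM in 12-month WT retinas, above every other member in each WT library. Eno1, Aldoa and Pkm, at 309, 156 and 212 RPKM in KO and 529, 460 and 436 RPKM in WT, overlapped with one another over WT libraries. In 12-month KO retinas Eno1, Pgam1 and Pgk1 followed Gapdh, at 309, 296 and 290 RPKM, and Aldoa came after them. The lowest members were Slc16a3, Slc16a8 and Pdk4, with Pdk4 at 0.294 RPKM in 12-month KO and 0.277 RPKM in 12-month WT.

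Within families the balance of paralogs moved at 12 months. Hk2 made up 67.4, 79.1 and 68.9% of summed Hk1 and Hk2 RPKM in 12-month KO and 44.9, 53.5 and 54.8% in 12-month WT retinas. At P28 the Hk2 share was 40.7, 42.6 and 41.7% in KO and 49.9, 53.5 and 54.6% in WT. The groups were apart at both ages, in opposite directions. Hk1, the other part of the sum, was at 55.4 RPKM in 12-month KO and 105 RPKM in 12-month WT retinas. With coding transcripts alone the Hk2 share was 41.0, 50.9 and 42.1% in 12-month KO and 30.1, 32.6 and 32.9% in 12-month WT, still without overlap. At P28 that coding share was 19.8, 33.9 and 19.8% in KO and 31.6, 30.3 and 31.5% in WT, where KO library 2 lay above WT.

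Aldoc made up 47.5 ± 7.78% of the aldolase pair in 12-month KO and 29.2 ± 2.71% in 12-month WT retinas (SD, n = 3 each), but with coding transcripts 14.7 to 17.5% in KO and 12.6 to 14.8% in WT, which overlap. Pfkp held 89.1 ± 1.96% of phosphofructokinase RPKM in 12-month KO and 83.0 ± 1.33% in 12-month WT. Pdk2 held 12.1 ± 2.97% of the 4 kinases in 12-month KO and 24.5 ± 2.19% in 12-month WT, while Pdk3 held 51.9 ± 0.84% and 43.8 ± 2.20% in these groups. Ldhb held 23.9 ± 1.50% of the Ldha and Ldhb sum in 12-month KO and 23.1 ± 1.24% in 12-month WT, so the balance of the lactate dehydrogenases differed by less than the spread at that age. It was lower at P28, at 14.1 to 15.5% in KO and 17.3 to 18.6% in WT libraries. These shares are descriptions and were not tested.

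**Figure D5:**
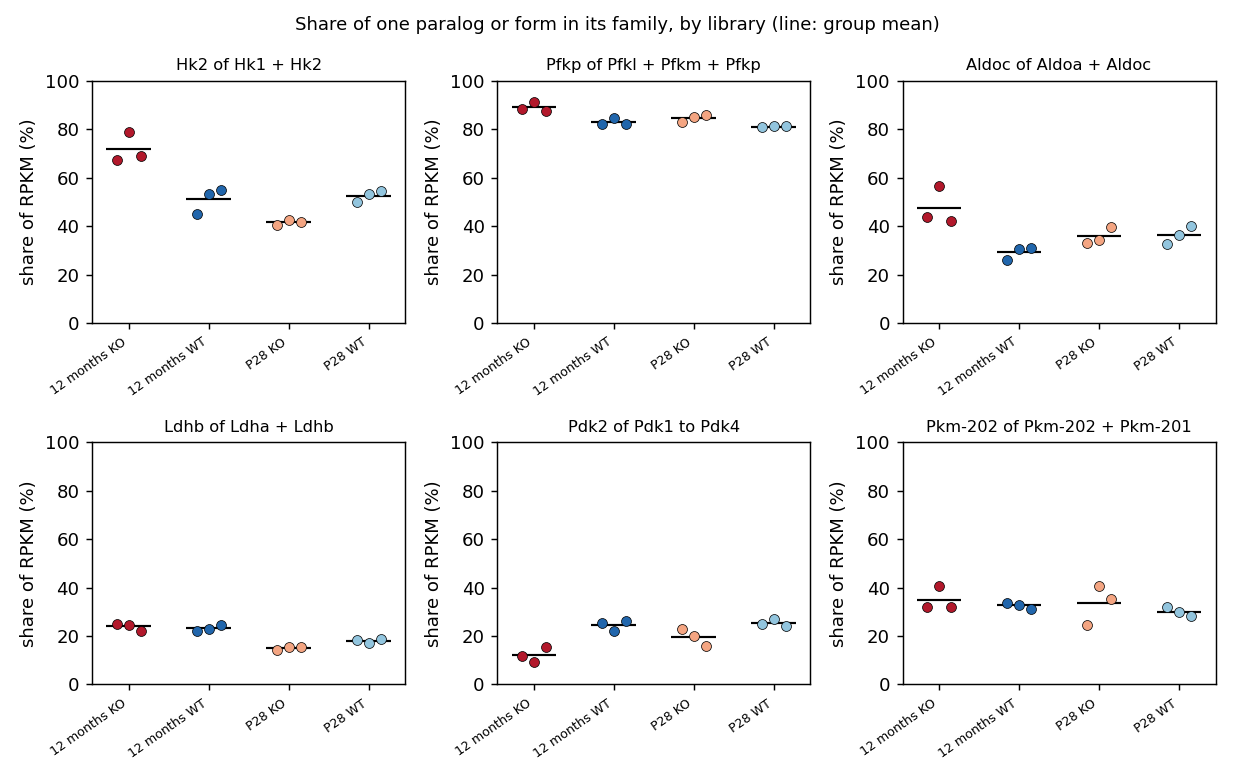
Share of summed RPKM, in percent, held by Hk2, Pfkp, Aldoc, Ldhb and Pdk2 within their families and by Pkm-202 within its 2 forms, in each library with the group mean as a line. The Hk2 share is 67.4 to 79.1% in 12-month KO and 44.9 to 54.8% in 12-month WT libraries, and the Pkm-202 share overlaps between KO and WT at both ages.

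Neighbouring pathways were read from lists of genes that are no members, beside the 23.5% of all tested genes that were lower and the 16.1% that were higher at 12 months. Of 8 pentose phosphate genes 5 were lower and 1 higher in KO retinas, with a median of -0.57, led by Tkt, transketolase (-1.35), and Taldo1, transaldolase (-0.87). Of 14 citrate cycle genes 8 were lower and 1 higher, with a median of -0.43, led by Mdh2, malate dehydrogenase (-0.81). Upstream and side steps had 5 of 10 tested genes lower and 0 higher, among them Pfkfb4 (-1.10). Of 6 transport partners 2 were lower and 1 higher, where Bsg (-0.56), which carries MCT1 to the membrane, was lower and its relative Emb (0.43) higher. The 6 other pyruvate dehydrogenase genes had 2 higher, Dld (0.50) and the phosphatase gene Pdp1 (0.27), and 0 lower. Of 11 tested regulators 3 were lower and 1 higher, near the share of all genes, with Vegfa (-0.65) and the rod-derived cone viability factor gene Nxnl1 (-0.34) lower and Hif1a (0.55), which encodes a hypoxia-inducible factor, higher. All genes named here had limma adjusted p-values of 0.0379 or lower.

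At P28 the same lists held 2 calls, both lower in KO, Pdp2 (-0.45, limma adjusted p = 0.0397), a pyruvate dehydrogenase phosphatase gene, and Nxnl1 (-0.47, limma adjusted p = 0.0255). Markers of cell types are given beside the members, and at 12 months they too stand against 23.5% of all genes lower and 16.1% higher, a share to which the counts for Mueller glia, bipolar, amacrine and horizontal cells lie close. At 12 months 6 of 8 cone markers were lower and 0 higher, with a summed level of 869 to 978 CPM in KO and 1253 to 1366 CPM in WT libraries. Of 10 rod markers 5 were lower and 1 higher, with sums of 27442 to 34093 CPM in KO and 40652 to 47906 CPM in WT. Mueller glia had 2 of 7 markers lower and 0 higher, with sums of 2943 to 3028 CPM in KO and 3122 to 3414 CPM in WT. All 5 red cell genes were lower, with sums of 4.33 to 9.94 CPM in KO and 19.2 to 34.1 CPM in WT. At P28, where 1.49% of all genes were called, 3 of 8 cone markers, 1 of 10 rod markers and 3 of 5 red cell genes were lower and 0 were higher. The P28 rod sums were 28953 to 32918 CPM in KO and 37063 to 48507 CPM in WT, and the red cell sums 12.6 to 23.6 CPM in KO and 32.5 to 49.6 CPM in WT, both without overlap. The P28 cone sums, 918 to 1212 CPM in KO and 1148 to 1402 CPM in WT, overlapped. At 12 months again, microglia had 4 of 5 tested markers lower, endothelium and pericytes 4 of 7, and bipolar cells 1 of 6, with 0 higher in each. Of 6 markers each at 12 months, amacrine and horizontal cells had 1 lower and 1 higher, ganglion cells 2 lower and 2 higher, and lens 0. No rod, cone, Mueller glia or red cell marker was at 0 in every library of a group, and the part of cell makeup in the members' differences was not tested.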

How the data were processed

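The 32 genes, their roles and the other lists were chosen with earlier results of these data known. Per the submitters' processing notes and series text, reads were quantified with kallisto 0.45.0 on Ensembl 102 and summarised with tximport 1.30.0 and edgeR 4.0.3. The notes name a human build, but the identifiers belong to mouse: GENCODE M21 (GRCm38) holds 51989 of the 53028, 51883 with an equal end. The gene table deposited by the authors holds normalised signal, CPM after trimmed-mean scaling, not logged. The transcript table deposited by the authors holds RPKM, whose scaling is not given in the sources used here. Gene values tracked summed RPKM (median SD of the log2 ratio 0.0147 over 9162 genes) more closely than summed reads (0.0678).

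The gene test was limma 3.58.1 (R 4.3.3) on log2(CPM + 1), with 4 group means, a mean-dependent prior and a filter of 1 CPM in 3 libraries. P-values were adjusted by Benjamini-Hochberg over 16486 genes at 0.05. Fold changes on this scale understate the change of low genes. Transcripts were tested likewise as log2(RPKM + 0.5), with at least 0.5 RPKM in 3 libraries. The scripts were tested on simulated data. Genes below the filter and the Pkm share had exact permutation tests. Values by library are given for the 10 members with the largest called change at 12 months, every member called at P28 or for the difference, the 3 largest called changes with age in each genotype, and members below the filter. Pdha1, Slc16a1 and the transcripts named were added after their values were seen. The alternatives covered pseudocounts, filters, scaling, a GC and length trend, sex, a replicate block, and each library left out. Summed reads, coding RPKM alone and both KO libraries numbered 2 left out were chosen after seeing the data. Promoters came from RefSeq. Python 3.11.15, numpy 2.4.6, pandas 2.3.3, scipy 1.17.1 and matplotlib 3.10.9 were used.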

Additional observations from a re-analysis of the deposited data

Results flagged for a closer look

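Hk2 stood out because its KO effect differed between the ages by a test of the difference itself. The effect on the gene value at 12 months exceeded that at P28 by 1.24 on the log2 scale of CPM + 1 (limma adjusted p = 0.0410), with all 3 KO libraries above WT at 12 months and all 3 below WT at P28. The call held in 12 of 28 alternatives, and in 3 of the 12 fits that left out 1 library. For the coding transcript Hk2-201 the difference was 0.55 ± 0.45 and did not pass (limma adjusted p = 0.547).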

How the results depend on the processing

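At 12 months 22 members were called, 10 of them under every alternative and 15 without each library in turn. At P28 none of the 3 calls held under every alternative.

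At P28, 5 members passed at an adjusted p of 0.10, 0 without the filter on low values, with a sex term, with only the groups of the contrast and from summed reads, 1 from coding RPKM and 8 without both KO libraries numbered 2. Between ages in KO, the counts were 21 at 0.10, 7 without the filter, 7 with a sex term, 4 with only these groups, 7 from coding RPKM and 6 without both libraries. Between ages in WT, they were 3 at 0.10, 3 with the GC and length trend removed, 6 with only these groups, 0 from coding RPKM and 4 without both libraries. For the difference between ages, 10 members passed at 0.10 and 0 without the filter, by quantile scaling, from summed RPKM, with a sex term, from summed reads and from coding RPKM. Pgam1 at 12 months turned to 0.046 with the GC and length trend removed. Hk2 at 12 months turned to -0.034 from summed reads and -0.16 from coding RPKM. Calls over all 16486 genes moved with the settings as well. At P28 they were 246 in the main fit, 1039 at 0.10 and 2278 without both KO libraries numbered 2. With a sex term 1 passed there. Between ages in KO they were 4483 in the main fit, 6226 at 0.10, 3065 with a sex term and 3207 without both libraries. Between ages in WT they were 891 in the main fit, 1414 at 0.10 and 2054 without both libraries. For the difference they were 29 in the main fit, 1656 at 0.10 and 0 with a sex term. From coding RPKM 248 of 12070 genes passed at P28, 3312 between ages in KO, 338 in WT and 5 for the difference. Without the filter 67, 3447 and 5 of 33231 genes passed at P28, between ages in KO and for the difference. With the GC and length trend removed 1153 of 16268 genes passed between ages in WT. The cause of these shifts was not tested, beyond the samples and genes each alternative leaves out.

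Leaving out 1 library gave 15 to 24 member calls at 12 months and 0 to 5 at P28. Between ages it gave 6 to 19 in KO and 1 to 3 in WT, and 0 to 15 for the difference. Over all 16486 genes these fits gave 3552 to 7761 calls at 12 months and 3 to 1404 at P28. Called member transcripts ranged from 3 to 64 at 12 months and 0 to 6 at P28, without counts over all transcripts beside them. The difference in Pkm-202 share ranged from -0.659 to 3.81 percentage points at 12 months and from -0.0948 to 8.04 at P28.

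The main test did not pair libraries by replicate number. Deviations of same-numbered libraries correlated at -0.33 to 0.31. For KO against WT at 12 months the correlations were all positive, at 0.099, 0.31 and 0.16, so these values do not settle whether the numbers mark pairs. With the replicate block 21 members passed at 12 months, 1 at P28 and 0 for the difference. Of all 16486 genes 5907, 59 and 4 passed in these fits. With the block and the GC and length trend removed, 13 members passed at 12 months, 1 at P28 and 2 between ages in WT, and Pgam1 was at 0.046. Of all 16268 genes 1690, 111 and 918 passed there. The paired exact p for the Pkm-202 share was 0.75 at both ages.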
